A study of Mus musculus with 11 samples.

Results

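A group of 5 transcription factor genes of the heart, *Sox5*, *Zfpm2*, *Foxp1*, *Mef2c* and *Tbx2*, carried regions with more H3K27 acetylation (H3K27ac) in atrial cardiomyocyte nuclei of *Tbx5*G125R/+ mice than in those of controls. They were chosen because regions at these genes were already known to be listed as gained. From the authors' list of 1652 differentially acetylated regions, every region of either direction was taken whose most significant 500 bp bin had its midpoint in the body of a member gene, or within 100 kb of it, with that gene as the nearest protein-coding gene. This gave 8 of 1652 regions, 3 at *Sox5*, 2 at *Zfpm2* and 1 each at *Foxp1*, *Mef2c* and *Tbx2*. All 8 had a higher mean in *Tbx5*G125R/+ and none a lower one. Since the regions were selected by this same difference, the levels below describe them and are not tested.

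H3K27ac was profiled by CUT&RUN, in which an antibody against the mark directs a nuclease that releases the marked chromatin for sequencing. The 5 control libraries and the 6 *Tbx5*G125R/+ libraries came from mice of 8 to 12 weeks, with left and right atria pooled and nuclei sorted for PCM1, a protein of cardiomyocyte nuclei. The *Tbx5*G125R/+ mice carry a glycine-to-arginine change in the T-box of 1 *Tbx5* allele, made by CRISPR-Cas9, so that wild-type and mutant Tbx5 are present together. The sex of the mice and the strain of the controls were not given in the labels.

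H3K27ac marks active promoters and enhancers, and the level at an enhancer is often read as its activity. The T-box, MEF2, GATA, SOX and forkhead families act together in the gene network that forms the heart and sets apart its chambers, its valves and its conduction system. Tbx5 is an activator within that network and drives the chamber programme of the atrium. Tbx2 is a repressor of the same family that recognises similar DNA elements and, in the embryo, keeps the atrioventricular canal from adopting the chamber programme. Mef2c is a MADS-box activator required for the looping heart tube of the mouse embryo. Zfpm2, also known as FOG2, is a zinc finger cofactor that binds GATA4 and modulates its activity. Foxp1 is a forkhead repressor needed for the outflow tract and for normal cardiomyocyte growth in mouse embryos. Sox5 is an HMG-box factor without an activation domain of its own, best known for its work with Sox6 and Sox9 in cartilage.

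The promoters listed for the member genes are shown because the mark is read at promoters as well as at enhancers, and because the called regions lay away from them. The list of RefSeq (GRCm38.p6) promoters used here held 7 for 3 of the 5 genes. No called region overlapped any of them. Over the whole list 220 of the 1652 regions (13.3%) overlapped a listed promoter of a protein-coding gene, a share at which few or no overlaps are expected among 8 regions. No promoter was listed for *Zfpm2* or *Tbx2*, so their regions could not overlap a promoter of their own gene. The 1 promoter listed for *Sox5* lay inside the gene body and not at its upper end, where this minus-strand gene begins. The check of promoters is therefore incomplete. The 250 bases before the start nearest to the called regions are printed for *Sox5*, *Foxp1* and *Mef2c*, followed by the *Mef2c* promoter that was alone among the 7 in holding a T-box match. Capitals mark matches, on either strand, to the letters of 8 motifs that are spelled out after the sequences.
*Sox5*, chr6:143947107-143947356, minus strand: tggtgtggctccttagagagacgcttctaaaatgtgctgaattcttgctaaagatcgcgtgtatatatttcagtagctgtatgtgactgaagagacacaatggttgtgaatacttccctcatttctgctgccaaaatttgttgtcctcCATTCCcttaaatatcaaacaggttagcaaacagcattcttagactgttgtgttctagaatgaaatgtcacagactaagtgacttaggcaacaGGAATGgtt
*Foxp1*, chr6:99266516-99266765, minus strand: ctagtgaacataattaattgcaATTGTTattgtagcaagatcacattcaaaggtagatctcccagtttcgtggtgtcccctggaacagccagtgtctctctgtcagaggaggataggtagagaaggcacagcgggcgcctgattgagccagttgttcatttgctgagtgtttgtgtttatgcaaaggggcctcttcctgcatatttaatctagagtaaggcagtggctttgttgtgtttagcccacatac
*Mef2c*, chr13:83573357-83573606, plus strand: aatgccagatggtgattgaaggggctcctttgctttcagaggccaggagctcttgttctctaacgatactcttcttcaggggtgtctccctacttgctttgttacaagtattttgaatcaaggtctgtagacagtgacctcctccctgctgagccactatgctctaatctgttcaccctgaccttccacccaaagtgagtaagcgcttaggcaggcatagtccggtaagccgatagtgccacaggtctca
*Mef2c*, chr13:83523406-83523655, plus strand: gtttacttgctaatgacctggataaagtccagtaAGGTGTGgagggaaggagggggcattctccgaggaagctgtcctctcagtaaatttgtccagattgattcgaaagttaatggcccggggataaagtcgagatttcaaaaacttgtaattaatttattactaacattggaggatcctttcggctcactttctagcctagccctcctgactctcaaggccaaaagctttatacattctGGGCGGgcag

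The *Sox5* promoter held 2 TEAD matches and lay 39.4 kb from the nearest called region. The *Foxp1* promoter held 1 SOX match and lay 61.2 kb from the *Foxp1* region. The nearest *Mef2c* promoter, at 79.1 kb, held no match, and the other *Mef2c* promoter held a T-box and a KLF/SP match. The same 250 bases were searched in 21262 listed promoters of protein-coding genes. A T-box match (AGGTGTG or GGTGTGA on either strand) was held by 6.70% of these promoters. The TEAD letters GGAATG, which the family of Hippo pathway effectors recognises, were in 11.7%, and the SOX letters AACAAT, bound through the HMG box, in 8.22%. The KLF/SP letters of zinc finger factors, GGGCGG or GGGTGTGG, were the most common at 44.3%. The NKX2-5 letters CAAGTG, from a homeobox factor of the heart, were in 11.2%, and the forkhead letters TGTTTAC in 2.62%. The GATA letters AGATAAG were in 2.45% of these promoters, and the MEF2 letters, TAAAAATA or CTATAAATA, in 2.40%. These matches describe letters in the sequence, not binding. The sequences of the called regions themselves were not used here.

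The 8 regions were mostly intragenic and spread over long genes. The midpoint of the top bin, as the most significant bin is called below, lay inside the gene body in 7 of 8 regions. Over the whole list this held for 809 of 1339 regions with a higher *Tbx5*G125R/+ mean (60.4%). Exon and intron annotation was not used here. *Sox5* spans 954 kb on chromosome 6 (143828425 to 144782287), and its regions lay at 143841001 to 143842000, 143906751 to 143910000 and 144048001 to 144050250, called *Sox5* regions 1, 2 and 3 below. Gaps of 64.75 kb and 138 kb separated them. Regions 1 and 2 lay past the listed start on the minus strand, and region 3 lay inside the gene but before that start. *Zfpm2* spans 450 kb on chromosome 15 (40655042 to 41104592), with region 1 at 40869501 to 40870750 and region 2 at 41026751 to 41030750, 156 kb apart. The *Foxp1* region (chromosome 6, 99326501 to 99329250) lay between 2 of the 3 listed starts of that 597 kb gene. The *Mef2c* region (chromosome 13, 83648251 to 83655750) was the widest at 7500 bp, overlapped the long noncoding RNA gene *Gm52044*, and lay past all 3 listed starts in the last part of the gene.

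The *Tbx2* region differed in position. *Tbx2* is only 9.33 kb long (chromosome 11, 85832615 to 85841948), and its region, at 85842751 to 85847500, lay outside the gene with its top bin 3.80 kb beyond the upper end. *Bcas3* and the T-box gene *Tbx4* were also within 100 kb of this bin. The nearest called region of another gene lay 189 kb from *Tbx2*, inside *Bcas3*, and so belonged to that gene at any limit. It had control levels of 0 to 4.77 normalised reads and *Tbx5*G125R/+ levels of 11.5 to 34.1. For the other 4 genes the nearest called region that was not their own lay 836 kb to 2561 kb away. Widening the limit to 200 kb added no region.

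**Figure D1:**
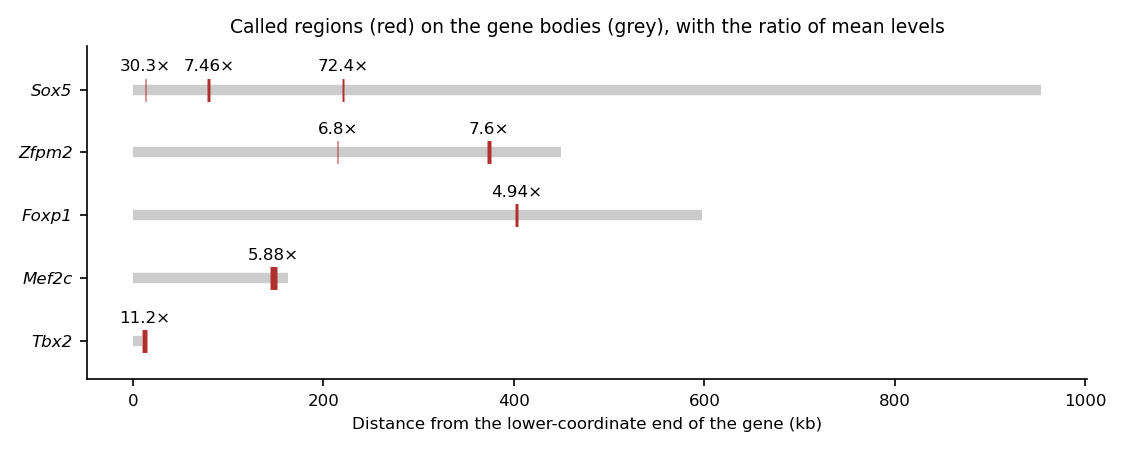
Position of the 8 called regions (red) along the 5 gene bodies (grey), in kb from the lower-coordinate end of each gene, with the ratio of mean *Tbx5*G125R/+ to mean control level above each region. The *Sox5* regions lie toward the lower end of the gene, and the *Tbx2* region lies beyond the gene.

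Levels are normalised read counts of the 500 bp top bin, that is, reads divided by the size factor of the library, and all bins have the same length. In bulk nuclei a change in the share of nuclei that carry a mark and a change in the mark per nucleus cannot be told apart. The replicates are separate mice according to the series design.

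*Sox5* had the emptiest control bins. At *Sox5* region 1, control replicates 1 to 5 had 0, 3.41, 0, 0 and 0 normalised reads, and the *Tbx5*G125R/+ libraries ranged from 10.6 to 30.6 with a median of 19.7. Only control replicate 2, the deepest control, held reads there, 5 in all, and every *Tbx5*G125R/+ library was higher. The means were 0.681 ± 1.52 (SD, n = 5) and 20.6 ± 6.97 (SD, n = 6), a 30.3-fold ratio. The ratio of pooled reads per unit of depth was 17.0, with a 95% exact counting interval of the control count from 7.30 to 52.4. At *Sox5* region 3 the control libraries had 0, 1.36, 0, 0 and 0 normalised reads, again from replicate 2 alone, and the *Tbx5*G125R/+ libraries ranged from 6.56 to 35.5 with a median of 20.4. With 2 control reads against 195 *Tbx5*G125R/+ reads, the ratio of pooled reads per unit of depth was 50.3, and the 95% exact counting interval of the control count put it between 13.9 and 415. The size of this gain is thus poorly fixed at the control depth.

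*Sox5* region 2 was better covered. Control replicates 1 to 5 had 0, 6.81, 6.75, 8.31 and 0 normalised reads, and the *Tbx5*G125R/+ libraries 13.1 to 63.4 with a median of 29.8. The means were 4.37 ± 4.04 (SD, n = 5) and 32.7 ± 17.2 (SD, n = 6), a ratio of 7.46. The lowest *Tbx5*G125R/+ library, replicate 3, stood closest to the highest control, replicate 4. *Sox5* was among 44 of 1281 genes with 3 or more called regions. Gene length was not taken into account in that count, and *Sox5* is a very long gene.

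*Zfpm2* had 2 regions of similar level. At region 1 the control libraries had 4.26, 3.41, 6.75, 5.54 and 1.95 normalised reads, and the *Tbx5*G125R/+ libraries ranged from 18.1 to 54.7 with a median of 25.5. This was the 1 region of the 8 in which every control library held a read. The mean went from 4.38 ± 1.86 (SD, n = 5) to 29.8 ± 13.5 (SD, n = 6), a ratio of 6.80. At region 2 the control libraries had 3.20, 3.41, 4.50, 8.31 and 0 normalised reads, and the *Tbx5*G125R/+ libraries 14.7 to 48.1 with a median of 29.2. The mean went from 3.88 ± 2.99 to 29.5 ± 13.7, a ratio of 7.60. The genotypes did not overlap at either region, and the *Tbx5*G125R/+ means of both were almost equal.

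*Foxp1* and *Mef2c* had the highest levels and the smallest ratios of means. In the fit of log2 values given below, the smallest ratio was instead at *Zfpm2* region 1. At the *Foxp1* region the control libraries had 2.13, 15.0, 14.6, 18.0 and 0 normalised reads, and the *Tbx5*G125R/+ libraries 31.8 to 72.2 with a median of 50.4. Controls split into replicates 2, 3 and 4 with 14.6 or more and replicates 1 and 5 with 2.13 or less. The means were 9.95 ± 8.25 (SD, n = 5) and 49.1 ± 14.1 (SD, n = 6), a ratio of 4.94, the lowest of the 8. At the *Mef2c* region the control libraries had 7.46, 12.9, 6.75, 4.15 and 0 normalised reads, and the *Tbx5*G125R/+ libraries 20.3 to 63.6 with a median of 32.0. Replicates 1 and 3 stood above the other *Tbx5*G125R/+ libraries there, at 52.3 and 63.6. The means were 6.26 ± 4.74 and 36.8 ± 17.8, a ratio of 5.88.

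At the *Tbx2* region, 3 control libraries had no read. Control replicates 1 to 5 had 0, 6.13, 0, 6.92 and 0 normalised reads, and the *Tbx5*G125R/+ libraries ranged from 10.6 to 46.4 with a median of 28.0. The *Tbx5*G125R/+ libraries were spread into replicates 1, 2 and 3 with 19.6 or less and replicates 4, 5 and 6 with 36.5 or more. The means were 2.61 ± 3.59 (SD, n = 5) and 29.2 ± 15.8 (SD, n = 6), an 11.2-fold ratio.

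**Figure D2:**
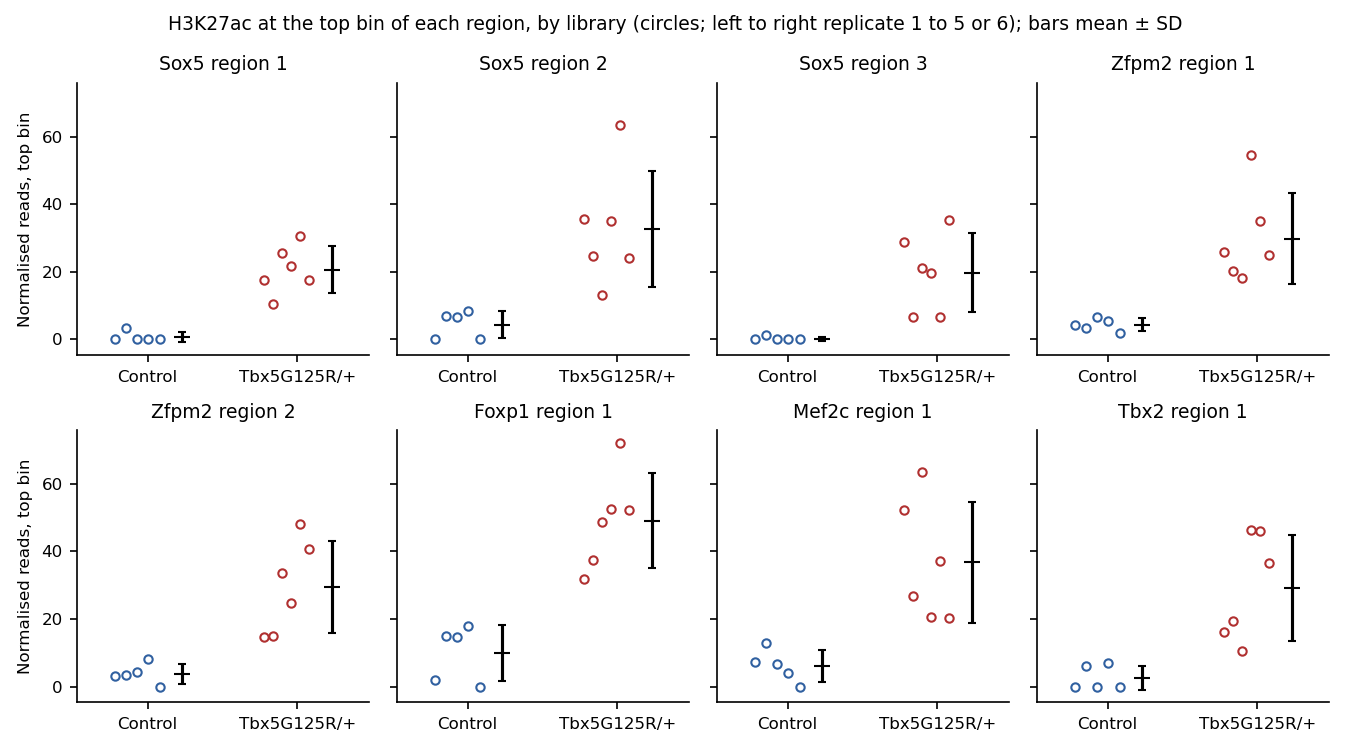
Normalised reads of the top bin in each library, as circles from left to right in order of replicate number, with the mean ± SD of 5 control (blue) and 6 *Tbx5*G125R/+ (red) libraries. In all 8 regions every *Tbx5*G125R/+ library lies above every control library, and the scatter among *Tbx5*G125R/+ libraries is wide.

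In order of the mean *Tbx5*G125R/+ level, *Foxp1* came first (49.1), followed by *Mef2c* (36.8), *Sox5* region 2 (32.7), *Zfpm2* regions 1 (29.8) and 2 (29.5), *Tbx2* (29.2), *Sox5* region 1 (20.6) and *Sox5* region 3 (19.7). Neighbours in that order differed by less than the smaller of their SDs between libraries, except for *Tbx2* and *Sox5* region 1, whose difference was below the SD of *Tbx2* only. In controls the means ran from 0.273 at *Sox5* region 3 to 9.95 at *Foxp1*. Of the 40 control values 16 were 0, and of the 48 *Tbx5*G125R/+ values none was 0. Altogether 166 control reads and 2025 *Tbx5*G125R/+ reads lay in the 8 bins. Counting error is therefore large in single control libraries, and the interval given above covers that error alone, not copies made in amplification.

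In level and width the medians of the 8 regions lay within the interquartile ranges of all gains. Their median control level was 4.13 normalised reads, against 2.27 (interquartile range 0.818 to 7.20) over all 1339 gains, and their median *Tbx5*G125R/+ level was 29.7 against 30.5 (21.2 to 54.2). Their median ratio was 7.53, against 13.2 (7.21 to 25.5) over all gains. The lowest ratio, at *Foxp1*, was at the 14.1th percentile of gains and the highest, at *Sox5* region 3, at the 94.3th. The widths ran from 1000 bp at *Sox5* region 1 to 7500 bp at *Mef2c*, with a median of 3000 bp against 2500 bp (1500 to 4750 bp) over all gains.

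The genotypes did not overlap in any of the 8 regions. This held in the same direction for 73.2% of all 1652 listed regions. In a limma fit of log2(normalised reads + 1) over the whole list, with Benjamini-Hochberg adjustment over 126854 regions, 6 of the 8 regions passed an adjusted p of 0.05, against 68.4% of all listed regions as increased. Those at *Foxp1* and *Mef2c* did not. With edgeR's quasi-likelihood test on the recovered reads, 5 of 8 passed, against 74.0% of all, and *Sox5* region 2 was the further one that did not. With DESeq2 on the same reads, 8 of 8 passed, against 80.9%. After scaling by trimmed mean of M values (TMM) computed on the listed bins, all 8 regions were still higher in *Tbx5*G125R/+. Then 2 of 8 passed the limma fit, against 14.1% of all listed regions, and the genotypes were without overlap in 1, against 18.6%. TMM assumes that most bins are unchanged, whereas every listed region had been called as differential. The counts after TMM therefore do not show how far the gains depend on scaling. All these shares are over the 1652 listed regions, of which only 1339 had a higher *Tbx5*G125R/+ mean. Before TMM scaling, 1130 regions passed as increased with limma, 1223 with edgeR and 1337 with DESeq2, and 1209 were without overlap in that direction. Nothing about the 5 genes is read from these shares, because the list had been selected on the same contrast. The log2 ratio in the limma fit ran from 2.49 ± 0.39 (SE) at *Zfpm2* region 1 to 3.94 ± 0.46 at *Sox5* region 1.

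**Figure D3:**
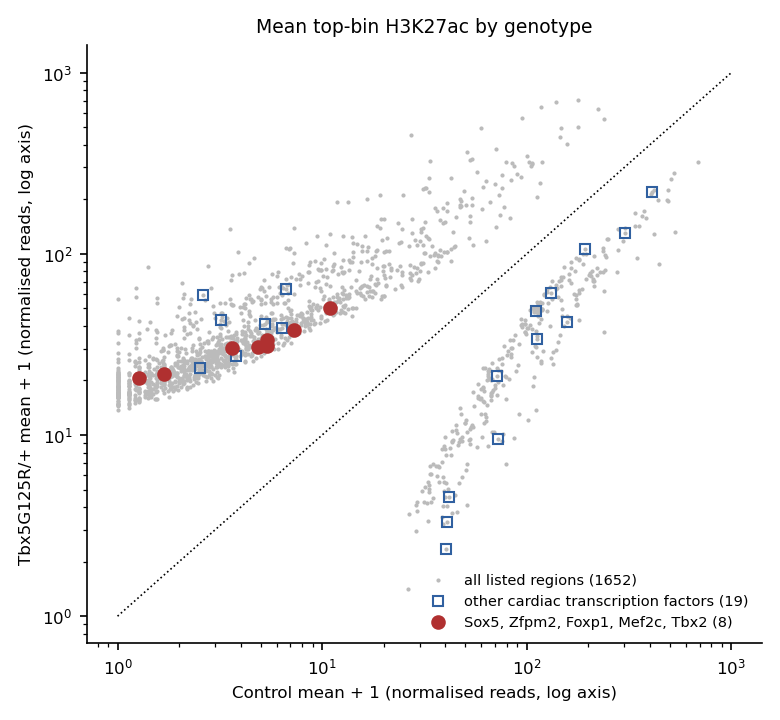
Mean top-bin level + 1 in *Tbx5*G125R/+ against controls, in normalised reads on log axes, for all 1652 listed regions (grey), 19 regions of other cardiac transcription factor genes (blue squares) and the 8 regions described here (red). The empty band along the dotted line of equal levels reflects the selection of called regions, and the 8 regions have control means of 0.273 to 9.95.

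Single libraries weighed on these levels, without a consistent relation to library depth. Size factors, the relative depths, lay between 0.513 and 1.47 for control and between 0.457 and 2.04 for *Tbx5*G125R/+ libraries. Summed over the 8 bins, control replicates 1 to 5 had 17.0, 52.5, 39.4, 51.2 and 1.95 normalised reads, and the *Tbx5*G125R/+ libraries ranged from 161 to 339 with a median of 243. Control replicate 5, the shallowest control, held 1 read in 1 of the 8 bins. It had no read in 74.6% of all gains, against 22.2% to 48.3% in the other control libraries, and its mean over the listed losses was the highest of the controls, at 145. The shallowest *Tbx5*G125R/+ library, replicate 5, had the highest sum and was the highest of its genotype in 4 of the 8 regions. The ratio of the mean sums was 7.64 with all libraries, 6.18 without control replicate 5, and 5.73 without both shallow libraries.

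**Figure D4:**
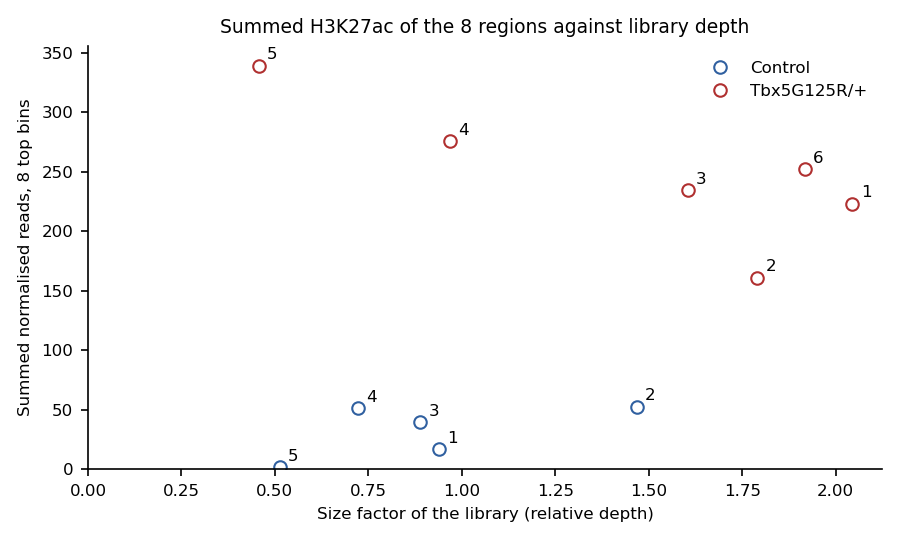
Summed normalised reads of the 8 top bins against the size factor of each library, for controls (blue) and *Tbx5*G125R/+ (red), with the replicate number beside each point. Control libraries lie between 1.95 and 52.5 and *Tbx5*G125R/+ libraries between 161 and 339 at all depths.

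Markers of other cell types also had called regions, in a list of which 81.1% of all regions were increased. A high share of increases at a marker list is therefore not particular to it. Regions were assigned by the nearest gene, and those of the fibroblast markers lay from inside the gene (*Pdgfra*) to 97.2 kb away (*Dcn*). Of 9 fibroblast markers 5 had called regions, 7 in all and all higher in *Tbx5*G125R/+ (*Col1a2*, *Dcn*, *Lum*, *Pdgfra* and *Postn*), with a summed level of 9.75 to 66.5 normalised reads per control library, against 279 to 477 per *Tbx5*G125R/+ library. *Tcf21*, *Col1a1*, *Col3a1* and *Gsn* had none. Of 10 endothelial markers, *Kdr* and *Cdh5* had 6 increased regions together and *Erg* 1 decreased region, with control sums of 164 to 408 and *Tbx5*G125R/+ sums of 594 to 871. *Pecam1*, *Flt1*, *Tek*, *Tie1*, *Emcn*, *Vwf* and *Eng* had none. *Rgs5* (1 of 7 smooth muscle and pericyte markers) and *Mrc1* (1 of 6 immune markers) had 1 increased region each, at 0 to 1.38 and 0 to 4.09 normalised reads in control libraries, against 2.19 to 28.9 and 11.7 to 32.3. The 3 endocardial, 5 neural and glial and 3 epicardial markers had no listed region. Of 12 cardiomyocyte markers *Actc1*, *Actn2* and *Ryr2* had 4 decreased regions, with control sums of 756 to 1134 against 280 to 367. Markers without a called region have no value here, so the sort could not be checked further. The part of other cell types in the gains at the 5 genes was not tested.

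Related transcription factor genes carried both directions. Of 71 other cardiac transcription factor genes 15 had a called region, 7 increased regions at 6 genes and 12 decreased regions at 10 genes, with *Hand2* in both groups. Increased regions thus made up 36.8% of this list and 81.1% of the whole, and the median ratio was 0.460 against 10.2. The low share is partly built in, because the 5 genes were set apart for their gains. With their 8 regions added, 15 of 27 regions (55.6%) were increased. None of the 8 other T-box genes on the list, *Tbx5* included, had a called region, and further T-box genes were not looked up. Over the whole list 1281 genes had a called region, and their share of all protein-coding genes was not computed. Counts of genes with or without a region, here and below, are therefore not read as traits of a family. In the MEF2 family *Mef2a* had a decreased region, from 70.4 ± 26.1 (SD, n = 5) in controls to 20.2 ± 11.4 (SD, n = 6), the opposite direction to *Mef2c*. Its control libraries ranged from 31.5 to 97.4 and its *Tbx5*G125R/+ libraries from 6.56 to 37.4, so that the genotypes overlapped. *Gata6*, from the family whose members bind Zfpm2, had a decreased region with means of 111 ± 73.2 and 32.7 ± 13.4.

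Of 8 other forkhead genes on the list 2 had called regions, all 3 of them increased, and *Foxp3*, *Foxp4*, *Foxo3*, *Foxc1*, *Foxc2* and *Foxk1* had none. *Foxp2*, its close paralogue, had 2 increased regions, from 2.20 ± 1.64 (SD, n = 5) to 41.9 ± 20.6 (SD, n = 6) and from 1.53 ± 2.12 to 22.5 ± 11.1. *Foxo1*, a forkhead factor under insulin control, had 1, from 2.80 ± 3.12 to 26.3 ± 8.49. Near *Sox9*, the SOX factor that works with Sox5 in cartilage, an increased region 63.0 kb away had means of 4.25 ± 6.35 and 40.2 ± 18.0. *Sox6*, the closest relative of *Sox5*, had no called region.

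Gains outside these families included regions at *Mrtfa* and *Hand2*. *Mrtfa*, a coactivator of serum response factor, had means of 5.67 ± 5.93 (SD, n = 5) and 63.4 ± 20.1 (SD, n = 6), and the increased *Hand2* region, at a bHLH factor of the developing ventricles, of 5.35 ± 4.58 and 37.7 ± 16.4. The decreased regions started from higher control levels than any of the 8, between 39.3 at *Nr2f1* and 408 at *Ppargc1a*, and besides those named included regions at *Hopx*, *Myocd*, *Esrrg*, *Smyd1* and *Hand2*. All of these regions come from the same called list, so their difference between genotypes is likewise a description.

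**Figure D5:**
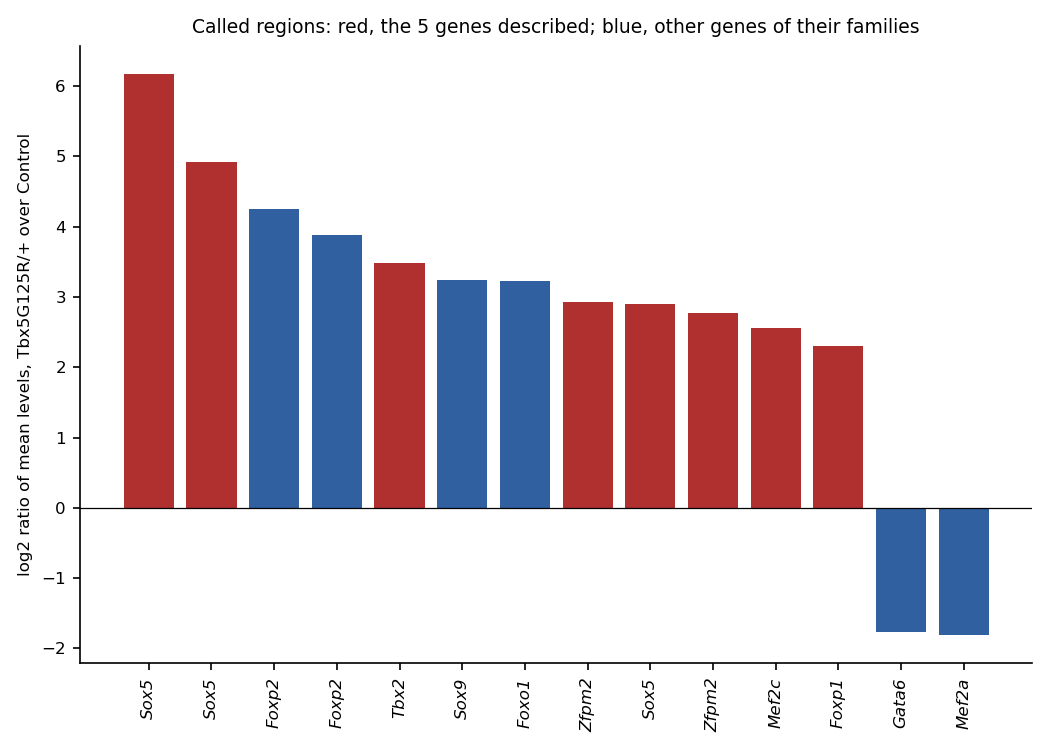
The log2 ratio of mean top-bin levels, *Tbx5*G125R/+ over control, for each called region at the 5 genes described (red) and at 5 other genes of the T-box, MEF2, GATA and FOG, SOX and forkhead families (blue, 6 regions). The 8 red bars are all above 0, and the blue bars comprise 4 above and 2 below.

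The pattern over the 11 libraries was shared with many other gains. For the region with the highest mean of each gene, Pearson's r of log2(normalised reads + 1) with all other gains had a median of 0.760 to 0.848, which rests largely on the step between genotypes shared by the list. *Sox5* region 2 was most like regions at *Aldh2* (r = 0.98), *Tecr* (0.98) and *Lilrb4a* (0.98). The *Foxp1* region was most like regions at *Fam171a1* (0.97), *Aldh2* (0.97) and *Rab3gap1* (0.97), so that 1 gene was named for both. *Zfpm2* region 1 was closest to *Denn2b* (0.99), *Gm4832* (0.97) and *Ccnyl1* (0.97). The *Mef2c* region was closest to *Myo10* (0.97), *Chst11* (0.96) and *Rasgrf2* (0.96), and the *Tbx2* region to *Ptprn2* (0.98), *Nin* (0.97) and *Snx18* (0.96).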

How the data were processed

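The members and the gene lists were chosen with earlier results of these data known. Per the file headers, the authors deposited 1 table of called regions, with the signal of each library as the normalised count of the top bin (reads divided by a size factor). Their processing notes name BWA, bedtools, DESeq2 and mouse build mm10, and versions were not given in the sources used here. The log2 fold changes and adjusted p-values of the authors' comparison are also deposited, hold an adjusted p under 0.05 in each region, and were not used. Other regions were not analysed here. All 11 columns were mapped by name to the labels.

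Whole reads were recovered for 100% of the values within 0.05 reads, with 27118 to 72442 reads per control library and 43183 to 161738 per *Tbx5*G125R/+ library in the listed bins. Direction was taken from the group means of the top bin, which gave 1339 increased and 313 decreased regions. Gene bodies, promoters and symbols came from RefSeq (GRCm38.p6, the coordinates of mm10). The fits used limma 3.58.1 on log2(normalised reads + 1) with no filter, edgeR 4.0.16 and DESeq2 1.42.0 in R 4.3.3, each over all 1652 regions, two-sided, with Benjamini-Hochberg adjustment over 126854, the highest region number. All were also run on simulated reads, in which most regions were unchanged and baselines were means over all libraries. That setting differs from the listed bins, so the run does not show how accurate the fits are here. In the count test with edgeR 1223 regions passed as increased and 214 as decreased. Named were all regions of the 5 genes, listed transcription factor and marker genes with a region, neighbours within 100 kb, and the 3 genes most alike by Pearson's r. Some listed genes with a region are not reported here. Alternatives comprised gene assignment, leaving out libraries, pseudocounts of 0.5 and 5, a mean of at least 10, scaling by trimmed mean of M values (TMM) and a replicate block.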

Additional observations from a re-analysis of the deposited data

Results flagged for a closer look

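In 2 of 18 groups of libraries checked, 1 library stood apart from the others of its genotype by more than Dixon's 95% critical value (0.71 for 5 libraries). Both were control groups in which control replicate 2, the deepest control, was alone in holding reads, with 3.41 normalised reads at *Sox5* region 1 and 1.36 at *Sox5* region 3. For continuous values about 1 in 20 groups exceeds this value by chance. That rate does not apply here, since with the other 4 controls at 0 any read at all sets a library apart.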

How the results depend on the processing

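All 8 regions kept a higher level in *Tbx5*G125R/+ under each of 19 alternatives, with log2 ratios from 0.95 to 5.45. Every *Tbx5*G125R/+ library already lay above every control library in these regions. Leaving out libraries, changing the pseudocount or filtering by mean could therefore not reverse the direction. Of the 152 log2 ratios under these alternatives, 144 moved by less than the spread between libraries. That spread was the larger of the 2 SDs of log2(normalised reads + 1) within genotypes, with a median of 1.33 over the 8 regions. It is a wide limit, under which the *Foxp1* ratio of 2.83 counted as unmoved at 1.35 after TMM scaling. The filter by mean left the ratios unchanged. Assignment by the nearest listed transcription start, in place of the gene body, left 3 regions, and that table lists no start for *Zfpm2* or *Tbx2*. TMM factors computed on the listed bins assume that most of them are unchanged, whereas all listed regions had been called as differential. With these factors, the median log2 ratio shifted by -1.24 over the whole list and by -1.36 over the 8 regions, from 2.96 to 1.60. Then 2 of 8 regions passed the limma fit, both at *Sox5* (14.1% of all listed regions as increased), 1 region (*Sox5* region 3) was without overlap (18.6% of all), and the share of increases among all limma calls went from 93.1% to 43.1%. Without each library in turn, 4 regions (without control replicate 1 or *Tbx5*G125R/+ replicate 3, 5 or 6) to 7 regions (without control replicate 2) passed (57.1% to 64.5% of all). The median log2 ratio was 2.48 (without control replicate 5) to 3.32 (without control replicate 4). All 8 were without overlap in every case (73.7% to 76.8% of all). Leaving out a library cannot create overlap, so that count was fixed in advance. The *Foxp1* region passed in 0 of these 11 fits, *Mef2c* in 2 and *Sox5* region 2 in 3. With the replicate block, on replicates 1 to 5, 3 of 8 regions passed, against 42.7% of all. Same-numbered libraries of the 2 genotypes did not deviate together over the listed regions (r of -0.15 to -0.02). These values cannot tell whether such libraries shared a sort or a batch, because the regions were selected on genotype. Adjusted over the 1652 listed regions alone, or with a pseudocount of 5, 8 of 8 regions passed, against 81.1% and 80.3% of all. The motif search in whole regions was not run, since no genome sequence was used here.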

Other observations

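Set against each library's own mean over all listed gains, the summed level of the 8 regions varied more among controls. This quotient was 3.25 to 5.54 in the *Tbx5*G125R/+ libraries. In controls it was 1.74, 4.77, 4.42, 5.87 and 0.354 for replicates 1 to 5, so that replicates 1 and 5 lay below all other libraries.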
